A study of Mus musculus with 18 samples.

Results

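Isoforms whose 3′ end lies inside the annotated one were described in myotubes of wild-type female mice. They are the rows that the authors classed as truncated at the 3′ end, on nuclear chromosomes only. The class held 856 of the 7095 nuclear isoforms of the polysome table (12.1%) and 910 of the 6593 of the decay table (13.8%). By coverage, a count summed over all libraries of an assay, they made up 12.2% and 12.9%. The same pair of ends was listed in both tables for 338 of them, 39.5% of the polysome set and 37.1% of the decay set. Of the 683 and 803 distinct 3′ ends, 448 were shared, or 65.6% and 55.8%. The overlap of annotated or of all isoforms was not counted, so whether these shares are particular to the class was not tested.

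TIF-seq2 reads start and end from the same RNA molecule, so each row is an isoform with a start and a 3′ end that were read together. Whether each 3′ end is a polyadenylation site was not tested. Primary myoblasts of gastrocnemius muscle became myotubes over 24 h in the presence of an ERK inhibitor, SCH772984 at 1 µM, which all groups received. The age of the mice was not given. For polysome profiling, cells of 2 mice were held in 100 µg/ml cycloheximide for 5 min, and lysates on 10 to 50% sucrose gradients gave free, light (2 to 5 ribosomes) and heavy (6 or more ribosomes) fractions, or 6 libraries. For decay, cells of 3 mice were sampled after 0, 3, 6 and 12 h in 7.5 µg/ml actinomycin D, which stops transcription, or 12 libraries. Desmin, a muscle marker, had the highest coverage of any polysome row.

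Cleavage and polyadenylation end most mammalian mRNAs a short way after a signal hexamer, AAUAAA or its common variant AUUAAA. A gene with several such signals in its 3′ UTR can make a short and a long mRNA that encode the same protein. The stretch that only the long form has can carry sites for microRNAs and for RNA-binding proteins that act on translation and decay.

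The ends below are shown because these isoforms had high coverage or are compared in pairs further on. Each line gives the last 30 nt of the 3′ UTR as deposited, 5′ to 3′ on the strand of the gene (build GRCm39), and capitals mark the hexamer AATAAA or ATTAAA nearest to the end. For the genes compared in pairs, the end of the annotated form with the same 5′ end follows.
Des, shortened, chr1:75336976-75344357, plus strand: ggacagaaacaatAATAAAgagacaagcac
Rack1, shortened, chr11:48691187-48696912, plus strand: acaaagtcttagaAATAAActggctttctg
Calr, shortened, chr8:85568720-85573495, minus strand: aatttctATTAAAttaagttttgtgtcttc
Chrna1, shortened, chr2:73396143-73410650, minus strand: ttctttcctttAATAAAtataattgtactt
Chrna1, shortened, chr2:73396267-73410650, minus strand: accctttgaagtaAATAAAagtgagccctc
Tpm2, shortened, chr4:43515683-43523464, minus strand: actacttAATAAActctgaacttggtctcc
Tpm2, annotated, chr4:43514712-43523464, minus strand: tcctcgggccAATAAActgatgttactggc
Jpt1, shortened, chr11:115388858-115405210, minus strand: ggattggtttcATTAAAggagaagcacttt
Jpt1, annotated, chr11:115388181-115405210, minus strand: ttgcttaaagtaaacaatacccaccttttg
Ncaph2, shortened, chr15:89239955-89255782, plus strand: tggcctagcctAATAAAgtgttgctacccc
Ncaph2, annotated, chr15:89239955-89257029, plus strand: tctatttacAATAAAttgttctttataggg
Eef2, shortened, chr10:81012480-81018189, plus strand: caaaagtctaAATAAAtgcattcagaggtt
Eef2, annotated, chr10:81012480-81018329, plus strand: attggagtAATAAActacagtggttgatcc
Fkbp4, shortened, chr6:128407627-128415621, minus strand: attttgagtgaattagacctttatttttct
Fkbp4, annotated, chr6:128407070-128415621, minus strand: cctgtgcttgagcAATAAAgtggaaacaac
The shortened ends of Tpm2, Ncaph2 and Eef2 each have a hexamer of their own, as do the annotated ends of the same genes. Jpt1 has one at its shortened end and none in these 30 nt at its annotated end, while Fkbp4 has the reverse. The annotated end of Jpt1 does hold AGTAAA, a single-base variant of AATAAA.

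The shortened ends lay a median of 792 nt inside the annotated end in the polysome table (quartiles 326 and 1739 nt) and 686.5 nt in the decay table (287 and 1536 nt). These distances chose the class: the closest member lay 101 nt inside, and annotated rows reached 100 nt inside the end. Just inside that limit, 20 polysome members lay 101 to 110 nt away, and just outside it were 13 annotated rows at 91 to 100 nt. In the decay table the counts were 23 members and 14 annotated rows. Members 501 to 1000 nt inside were 19.9% of the isoforms and 40.5% of the coverage in the polysome table, and 19.0% and 32.4% in the decay table. Des and Tpm2, the most covered members, fell in this class.

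What was left of the 3′ UTR had a median length of 264.5 nt in shortened isoforms and 344 nt in annotated isoforms of the polysome table. The medians were 274 nt in shortened and 332 nt in annotated isoforms of the decay table. The interval for the median, from binomial ranks at 95%, was 247 to 288 nt for shortened isoforms and 329 to 358 nt for annotated isoforms in the polysome table, and 256 to 298 against 316 to 346 nt in the decay table. These intervals describe spread over isoforms, which share ends, and not spread over mice. The length distributions overlapped broadly, since quartiles ran from 143 to 506 nt in shortened and from 162 to 678 nt in annotated isoforms of the polysome table.

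**Figure D1:**
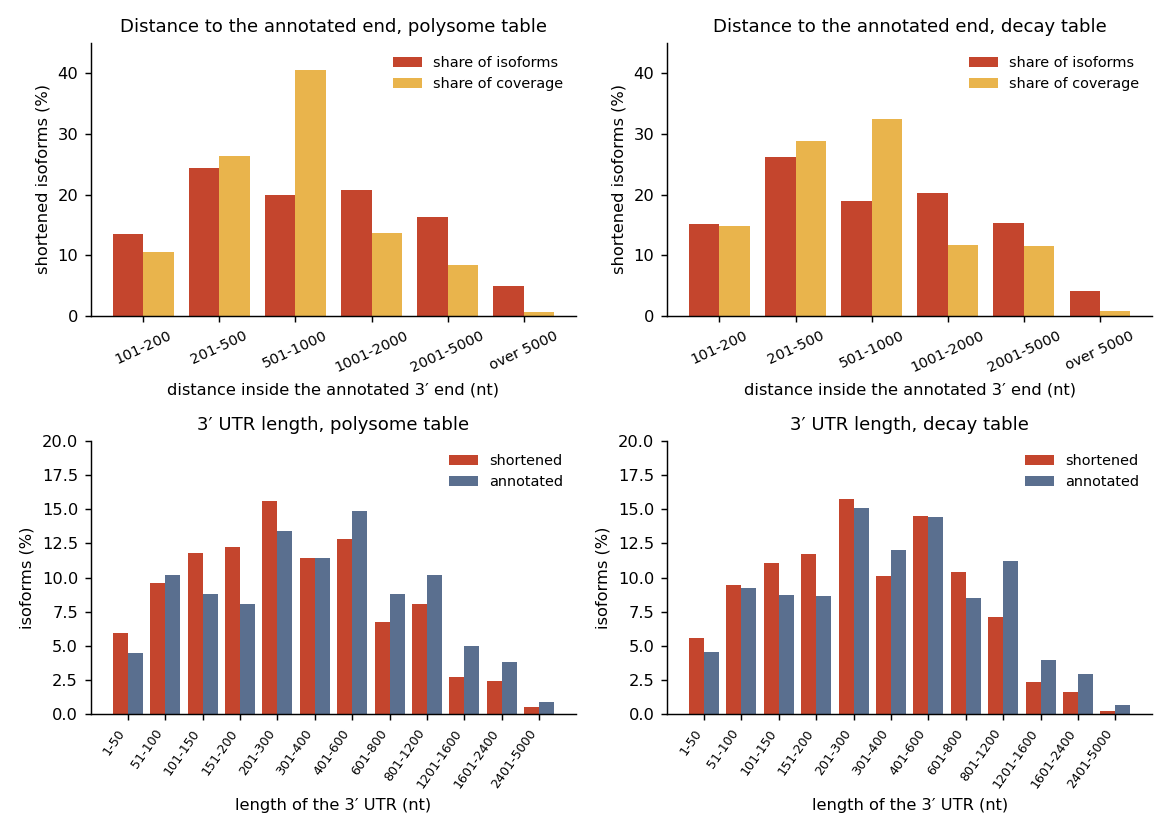
Upper panels: share of shortened isoforms (red) and of their coverage (yellow) by distance inside the annotated 3′ end, in nt. Lower panels: percent of shortened (red) and annotated (blue) isoforms by 3′ UTR length in nt; the class from 501 to 1000 nt held 40.5% of the coverage of shortened isoforms in the polysome table.

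The label could be checked only at 5′ ends with annotated rows, for 267 of 856 polysome and 287 of 910 decay members. Of these, 18 polysome and 19 decay members ended beyond the end of every annotated row of their 5′ end. The annotated end that each distance refers to could not be looked up, and rows of other classes were not compared. Spans over 200000 nt were listed for 14 polysome and 22 decay members, none with coverage above 42 and 101. Annotated isoforms had such spans too, in 22 of 3578 polysome and 27 of 3431 decay rows. No 3′ UTR sequence was given for 86 polysome members (10.0%) and 67 decay members (7.36%), against 11 (0.307%) and 8 (0.233%) annotated isoforms. These members lay far inside, at medians of 3213 and 3023 nt, and 81.4% of the polysome members over 5000 nt inside were of this kind. Among them were isoforms of Tnnt1 and Tnnc2, which encode slow troponin T and fast troponin C of the muscle thin filament. The Tnnt1 isoform at chr7:4512993-4518974 had coverage of 340 in the polysome table, against 2171 for the annotated isoforms of its 5′ end.

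A hexamer stood in the last 40 nt of 59.0% of shortened isoforms with a 3′ UTR in the polysome table (454 of 770, Wilson 95% interval 55.5 to 62.4%). Annotated isoforms had one in 82.4% (2939 of 3567, interval 81.1 to 83.6%). In the decay table the shares were 64.4% of shortened isoforms (543 of 843, interval 61.1 to 67.6%) and 83.6% of annotated isoforms (2863 of 3423, interval 82.4 to 84.8%). Isoforms with an extended 3′ end, another class away from annotated ends, had hexamers in 54.2% and 55.8%. The position was alike: the first base of the hexamer lay at a median of 21 nt from the end in shortened and in annotated isoforms of both tables. When 10 single-base variants of AATAAA were counted too, the shares were 78.8% of shortened against 92.9% of annotated isoforms in the polysome table, and 83.9% against 93.7% in the decay table.

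The hexamer was more frequent at well-covered ends. Of the shortened isoforms with coverage of 11 to 29 in the polysome table, 52.5% had one, 58.0% at 30 to 99, 68.3% at 100 to under 1000, and 91.3% (21 of 23) from 1000 up. In the decay table the shares were 57.7% at 21 to 29, 61.8% at 30 to 99, 67.7% at 100 to under 1000 and 78.1% (57 of 73) from 1000 up. Well-covered members without either hexamer existed in both tables: Flad1, which encodes FAD synthase, ended at chr3:89310390-89319168 with coverage of 852 in the polysome table. By distance, the share was highest 101 to 200 nt inside the annotated end, at 68.1% and 72.8%, and lowest 1001 to 2000 nt inside, at 51.6% and 55.7%.

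**Figure D2:**
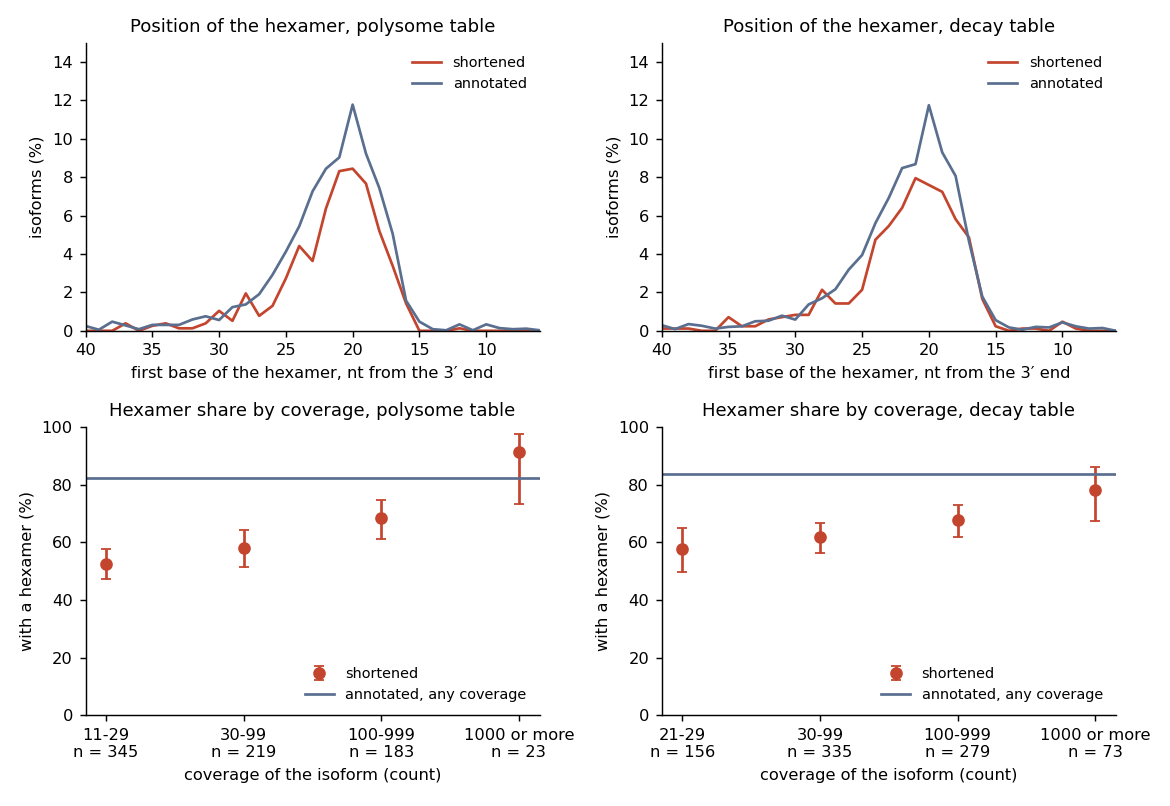
Upper panels: percent of shortened (red) and annotated (blue) isoforms whose hexamer begins at each position, in nt from the 3′ end. Lower panels: percent of shortened isoforms with a hexamer by coverage, with Wilson 95% intervals, and the share of all annotated isoforms as a line at 82.4% and 83.6%.

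Bases after the listed 3′ end could be read where a longer deposited 3′ UTR covered them, at 271 of 602 distinct shortened ends with a 3′ UTR in the polysome table and 309 of 739 in the decay table. A run of 6 A or at least 12 A in the next 20 nt, where an oligo(dT) primer could anneal inside an mRNA, occurred at 0 of 271 and 2 of 309 shortened ends. At annotated ends it occurred at 3 of 218 and 2 of 239. Of all windows of 20 nt in annotated 3′ UTRs, 0.785% and 1.15% met the same rule. A count of 0 among 271 allows a share of up to 1.40% (upper Wilson bound). The last base given was A at 1 of 602 and 4 of 739 shortened ends, and at 9 of 2364 and 9 of 2648 annotated ends. The sources used here do not say whether A-rich ends were removed or A bases trimmed before deposit.

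Most shortened isoforms had no annotated counterpart with the same start. No annotated row shared the 5′ end of 589 polysome members (68.8%, with 47.4% of the coverage of all members) and 623 decay members (68.5%, with 61.4%). Of those with a 3′ UTR, 537 of 561 and 584 of 606 also had no annotated row that shared the first 14 nt of the 3′ UTR. Rows of other classes and annotated rows with another stop codon were not looked up.

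Several abundant muscle and housekeeping mRNAs had no or hardly any coverage at an annotated end from the same start. Des, which encodes the intermediate filament protein desmin, ended at chr1:75344357 with a 3′ UTR of 663 nt, 866 nt inside the annotated end. Its coverage was 50264 in the polysome table, where annotated isoforms of its 5′ end had 33, and 43471 in the decay table, where they had none listed. Its TE, the translation efficiency that the authors derived from the polysome fractions, was 0.000403, and its half-life 12.4. Neither value has a stated unit; the decay times are in hours. Rack1, a scaffold protein of the small ribosomal subunit, had coverage of 5433 and 15403, a 3′ UTR of 40 nt, a TE of 0.000694 and a half-life of 13.8. For both genes, nearly all coverage at the listed 5′ end lay at the shortened end.

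Rps16, a protein of the same ribosomal subunit, kept 57 nt, with coverage of 3208 and 8458 for the isoform that starts at 28050175 in the polysome table and 28050176 in the decay table. Its TE was 0.00117 and its half-life 13.2. Calr, which encodes the calcium-binding chaperone calreticulin of the endoplasmic reticulum, kept 556 nt and had coverage of 2299 and 5520. Serpinf1, a secreted serpin, kept 103 nt and had coverage of 2796 and a TE of 0.00207 in the polysome table. Of these 5 isoforms, Des and Calr (TE of 0.000599) had the longest 3′ UTRs and the lowest TE. Rack1 (40 nt), Rps16 (57 nt) and Serpinf1 (103 nt) ran the other way, with a higher TE where the 3′ UTR was longer.

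Chrna1, which encodes the alpha subunit of the muscle acetylcholine receptor, had several shortened ends. The longer, with a 3′ UTR of 377 nt, had coverage of 9366 and the shorter, with 253 nt, 4386 in the decay table. In the polysome table the order was the other way, with 519 for 377 nt and 959 for 258 nt. TE was 0.000618 for the form with 377 nt and 0.000762 for the form with 258 nt, while half-lives were 11.3 for 377 nt and 12.6 for 253 nt. The most covered members without a symbol and without an annotated row at their 5′ end were at chr1:87133533-87139356, with coverage of 5300 and 5622, at chr9:58195885-58220480, with 3437 in the polysome table, and at chr4:3834473-3835599, with 6827 in the decay table.

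Where annotated rows did share the 5′ end, the shortened isoforms held a median of 28.6% of the coverage of shortened and annotated rows together in the polysome table (210 5′ ends, rank interval 21.0 to 35.9%). At the 154 of these with a summed coverage of at least 100 it was 16.5%. The decay median was 36.3% (228 5′ ends, interval 29.3 to 43.3%). The spread was wide: shortened isoforms held over 50% at 73 and 82 of these 5′ ends, over 90% at 20 and 29, and under 10% at 56 and 55. Rows were listed only from coverage of 11 (polysome) and 21 (decay) up, so thinly covered 5′ ends cannot show such extreme shares. All the ends over 90% or under 10% had a summed coverage of at least 100. The medians over all 5′ ends thus depend on this lower limit. Decay coverage sums the 4 times after actinomycin D, so a share there can move with the half-life.

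For 88 5′ ends the share could be set side by side in both tables. The share was alike: it differed by a median of 5.15 percentage points, with Pearson's r of 0.946 and Spearman's rho of 0.934 across these ends, which come from cells of the same kind. Shortened isoforms held over 50% in both tables at 25 ends, at most 50% in both at 55, and fell on different sides at 8. Ncaph2, a subunit of condensin II, had a shortened share of 89.3% in the polysome table and 88.9% in the decay table. Jpt1, a small microtubule-associated protein, had 30.3% and 36.7%. Tpm2, which encodes beta-tropomyosin of the thin filament, differed more than the others named here, with 65.0% in the polysome table and 91.5% in the decay table. Oaz1, the antizyme that inhibits ornithine decarboxylase, had 12.2% and 2.503%.

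**Figure D3:**
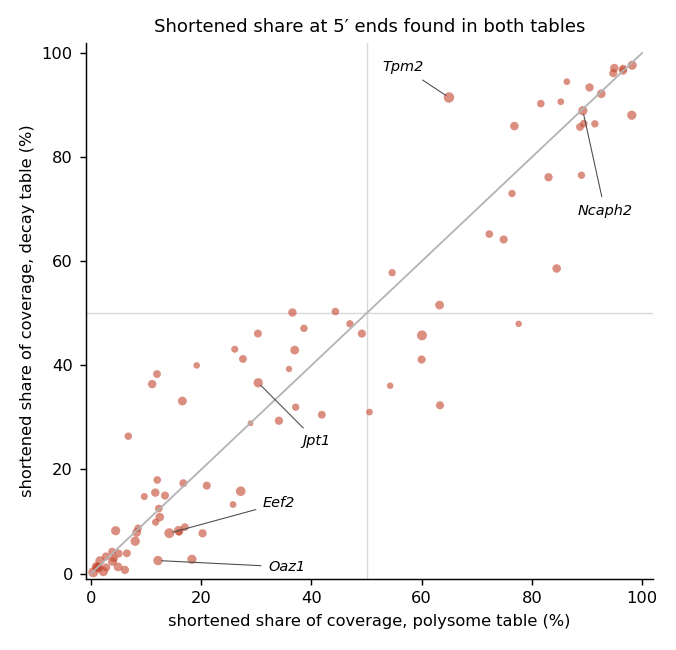
Percent of coverage held by shortened isoforms at each of 88 5′ ends, polysome table (x axis) against decay table (y axis); larger points have more coverage and the diagonal marks equal shares. Most ends lie near the diagonal, and Tpm2 lies above it at 65.0% and 91.5%.

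TE and half-life are each 1 value per isoform, made by the authors from all libraries of an assay, so no test over mice could be made and none was made over isoforms. Taken without pairing, at coverage of at least 30, TE had a median of 0.000787 in shortened isoforms (n = 424) and 0.000752 in annotated isoforms (n = 2186). Half-lives had medians of 10.8 in shortened (n = 725) and 10.8 in annotated isoforms (n = 2868). TE was lower where the 3′ UTR was longer, in both kinds of isoform. With under 150 nt of 3′ UTR the median TE was 0.00106 in shortened and 0.00103 in annotated isoforms, and from 600 nt up it was 0.000572 in shortened and 0.000554 in annotated isoforms. In each of the 4 length classes, the TE medians of shortened and annotated isoforms lay within each other's rank intervals. Half-lives spread less over length, with medians of 11.1 in shortened and 11.7 in annotated isoforms below 150 nt and 10.3 in shortened and 9.92 in annotated isoforms from 600 nt up.

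**Figure D4:**
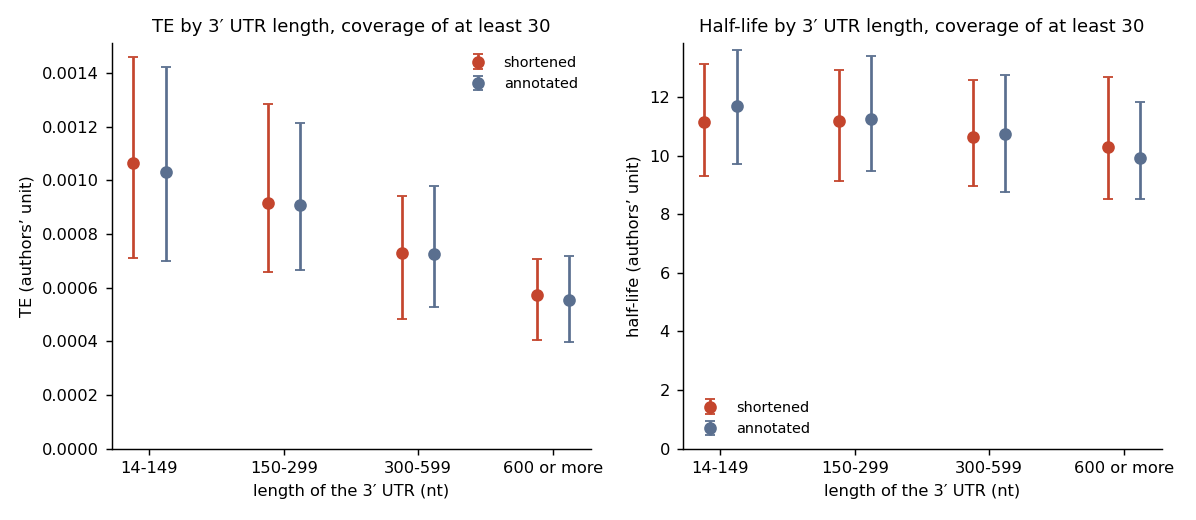
Median TE (left) and half-life (right) in the authors' units for shortened (red) and annotated (blue) isoforms with coverage of at least 30, by 3′ UTR length in nt; bars run from the lower to the upper quartile. The TE medians are 0.00106 (shortened) and 0.00103 (annotated) in the shortest class, and 0.000572 (shortened) and 0.000554 (annotated) in the longest.

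The comparison within a gene set each shortened isoform against the most covered annotated isoform that starts at the same 5′ end and has a longer 3′ UTR, both with coverage of at least 30. In the polysome table this gave 76 pairs, 1 for each 5′ end. The median log2 ratio of TE, shortened over annotated, was 0.45 (rank interval 0.33 to 0.61), a fold of 1.36, and the ratio was above 0 in 70 of 76 pairs. A TE higher by at least 1.5-fold was found in 29 of 76 pairs (38.2%), against 36.1% of all 202 pairs of isoforms at the same 5′ end with 3′ UTRs over 100 nt apart, whatever their class. A TE lower by as much was found in 1 of 76 pairs, against 0.495% of the 202. The share among shortened isoforms was thus close to that of shorter isoforms in general, which include them.

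The ratio went with the length lost. Pairs that lost 50 to under 200 nt had a median log2 ratio of 0.15 (n = 17), those that lost 200 to under 800 nt 0.43 (n = 35), and those that lost 800 nt or more 0.80 (n = 24). Spearman's rho between ratio and lost length was 0.571 across the 76 pairs, whose members share libraries. Pairs of annotated isoforms over 100 nt apart had a median of 0.40 for the shorter over the longer (41 of 48 above 0). By length they had 0.34 for 101 to under 200 nt (n = 12), 0.35 for 200 to under 800 nt (n = 22) and 0.86 from 800 nt up (n = 14). In the lowest class the rank interval was 0.18 to 0.41 for annotated pairs and 0.04 to 0.31 for shortened isoforms. These intervals overlap, and annotated pairs 100 nt or less apart were left out, so the lowest classes do not set the kinds of pair apart. Isoform pairs whose 3′ ends lay less than 50 nt from each other, which come closest to measuring the same isoform again, had a median of -0.01 and an SD of 0.41 (n = 33). Those pairs had a median lower coverage of 67, and the 7 with at least 100 had an SD of 0.19. TE may contain a scaling by transcript length, and that cannot be told apart here from a difference in ribosome load.

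With a hexamer the median ratio was 0.46 (n = 38) and without one it was 0.43 (n = 38). Where the shortened form held most of the coverage of its pair, the median was 0.52 (n = 35), and otherwise it was 0.39 (n = 41). Neither split moved the median out of the interval over all pairs.

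Among the pairs with the highest coverage, Tpm2 had a TE of 0.000831 in its shortened form, with a 3′ UTR of 238 nt, and 0.000466 in its annotated form, with 1209 nt, a log2 ratio of 0.83. Jpt1 had 0.00152 in the shortened form (119 nt) and 0.000912 in the annotated form (796 nt), a log2 ratio of 0.74. Fkbp4, a cochaperone of Hsp90, had 0.000674 in the shortened form and 0.000514 in the annotated form, a log2 ratio of 0.39. All 3 ratios exceeded the SD of 0.19 between near-identical ends at coverage of at least 100 (n = 7), and those of Tpm2 and Jpt1 also that of 0.41 at coverage of at least 30.

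Eef2, the factor that moves the ribosome along the mRNA, ran the other way, with 0.000207 in the shortened and 0.000258 in the annotated form, a log2 ratio of -0.31 for a loss of 140 nt. Oaz1 had 0.000864 in the shortened and 0.000696 in the annotated form, a log2 ratio of 0.31. Of the pairs without a symbol, chr7:28873956-28879932 had a log2 ratio of 0.43, chr15:78810928-78814394 of 0.65, chr2:26951877-26962223 of 0.36 and chr1:172025020-172034296 of 0.46. A pair on chromosome 18 had 0.07, below the SD of 0.19 between near-identical ends at coverage of at least 100 (n = 7). Eef2 exceeded that SD in the negative direction, and the other ratios of this paragraph exceeded it in the positive one. The 10 pairs thus had 9 ratios above 0, between 0.07 and 0.83.

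With coverage of at least 100 in both forms, the highest TE ratios were 1.34 at chr5:140327234-140374996, where 1177 nt were lost, 1.06 at chr4:140794568-140805619, with 739 nt lost, and 0.88 at chr2:33106110-33136552, with 1176 nt lost. The lowest were -0.31 for Eef2, -0.05 at chr10:127102265-127117675 and 0.02 at chr9:78385875-78388953. These last 3 had lost 140, 146 and 137 nt. All 6 pairs were picked for their ratios, which are given as a description.

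Half-lives differed less. Over 142 pairs of the decay table the median log2 ratio, shortened over annotated, was 0.12 (rank interval 0.02 to 0.18), and 87 of 142 pairs were above 0. A half-life longer by at least 1.5-fold was listed for 19 of 142 pairs (13.4%), against 20.6% of all 384 pairs of isoforms over 100 nt apart, and one shorter by as much for 7 (4.93%), against 5.99%. Pairs less than 50 nt apart had an SD of 0.56 (n = 73, median lower coverage of 65), or 0.35 at coverage of at least 100 (n = 23). These SDs describe the spread of single pairs and not the uncertainty of the median over 142 pairs. By lost length the medians were 0.14 for 50 to under 200 nt (n = 37), 0.04 for 200 to under 800 nt (n = 68) and 0.25 from 800 nt up (n = 36), and rho was 0.143. Annotated pairs over 100 nt apart had a median of 0.26 (62 of 91 above 0), and pairs of shortened isoforms at the same 5′ end one of 0.02 (37 of 73 above 0).

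Tpm2 had a half-life of 12.8 in its shortened and 11.8 in its annotated form, a log2 ratio of 0.12. Dpep1, a membrane dipeptidase, had 13.0 in the shortened and 11.3 in the annotated form, a log2 ratio of 0.20. Ak1, the adenylate kinase of the cytosol, had 14.1 in the shortened and 10.4 in the annotated form, a log2 ratio of 0.43 for a loss of 1194 nt. Against the SD of 0.35 between near-identical ends at coverage of at least 100, this ratio of Ak1, from the start at 32515500, was larger. It was below the SD of 0.56 between such ends at coverage of at least 30 (n = 73). Those of Tpm2 and Dpep1 were smaller than either SD. Other Ak1 starts with the same shortened and annotated 3′ ends had lower ratios. These were 0.23 (start 32518461, lower coverage of 213) and 0.27 (start 32519536, lower coverage of 68), both below the SD of 0.35. Jpt1 had a log2 ratio of 0.06 and Eef2 one of -0.20. The pairs without a symbol had 0.34 at chr7:28873956-28879932, 0.10 at chr9:78385875-78388953, 0.01 at chr2:26951877-26962169 and -0.33 at chr7:127804786-127805494, and a pair on chromosome 18 had -0.16.

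With coverage of at least 100, the highest half-life ratios were 1.21 at chr4:42980319-43000434, 0.84 for Anapc11, a subunit of the anaphase-promoting complex, and 0.82 for Rtf2. Anapc11 had a half-life of 22.01 in the shortened and 12.3 in the annotated form after a loss of 95 nt, and Rtf2 had 18.04 in the shortened and 10.2 in the annotated form after a loss of 1042 nt. The lowest were -0.37 for Fkbp4, -0.33 for Klhl41, a kelch protein of muscle, and -0.33 for Shmt2, the mitochondrial serine hydroxymethyltransferase. Klhl41 had 11.9 in the shortened form, which kept 14 nt of 3′ UTR, and 14.9 in the annotated form, which has 640 nt. A Des isoform that starts at 75336901 and shares the 3′ end at 75344357 had a half-life of 52.0 at coverage of 101, against 12.4 for the main Des isoform. Among members with coverage of at least 30 the upper quartile was 13.0 and the highest half-life 572, while sampling stopped at 12 h. How well values this high are fixed was not tested.

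**Figure D5:**
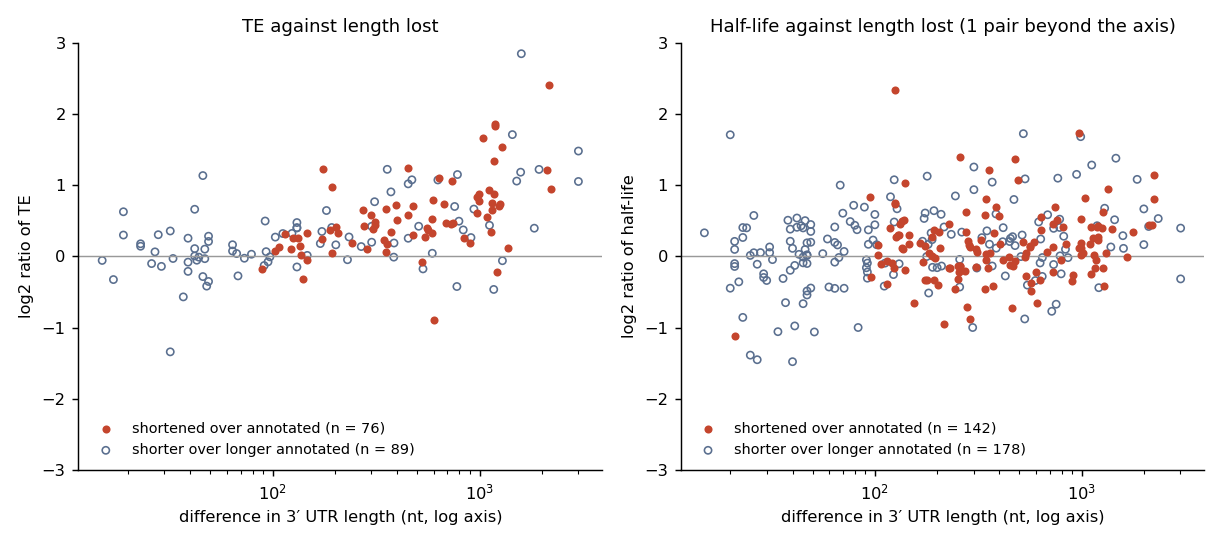
Log2 ratio of TE (left) and half-life (right) against the difference in 3′ UTR length in nt on a log axis; filled red points are shortened over annotated isoforms and open blue points the shorter over the longer of annotated isoforms at the same 5′ end. The TE ratio of shortened isoforms is above 0 in 70 of 76 pairs and goes up with length, while half-life ratios scatter around a median of 0.12; an annotated half-life pair at -8.23 lies beyond the axis.

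For 48 pairs both values were available. TE and half-life were both higher in the shortened form in 31 of them, TE was higher and half-life lower in 13, TE lower and half-life higher in 1, and both were lower in 3. TE was thus higher in most pairs whichever way the half-life went, so the count of 31 alone does not show that the ratios go together. Ak1 entered these pairs with more than 1 start. The ratios had a Spearman's rho of 0.446 across the 48 pairs. Of the 5 with the highest coverage, Tpm2, Jpt1 and the pair at chr7:28873956-28879932 were higher in both, Eef2 was lower in both, and the pair at chr15:78810928-78814394 had a log2 ratio of 0.65 in TE and -0.20 in half-life. Ncaph2, which lost 1247 nt, had 0.71 in TE and 0.39 in half-life.

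The sequence that shortened isoforms lack could be read where the annotated 3′ UTR of the same 5′ end began with the whole shortened one, for 171 distinct ends in the polysome table and 204 in the decay table. The median length lost was 493 and 391.5 nt, against 259 and 251 nt kept, and the lost stretch was the longer for 122 and 134 ends. It was richer in A and T, with a median G and C content of 50.7% in the lost and 53.2% in the kept stretch in the polysome table, and 45.8% in the lost and 49.7% in the kept stretch in the decay table. The pentamer ATTTA, found in AU-rich elements that destabilise mRNAs, occurred 0.64 times per 1000 nt in the lost and 0.66 times in the kept stretch in the polysome table, and 1.44 times in the lost and 1.34 times in the kept stretch in the decay table. At least 1 ATTTA was lost at 54 polysome ends (31.6%) and 83 decay ends (40.7%). Its density thus differed little between lost and kept sequence. The polysome table was richer in G and C throughout, with a median of 51.6% in the 3′ UTRs of shortened and 52.3% in those of annotated isoforms, against 48.6% in shortened and 50.1% in annotated isoforms of the decay table.

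Matches to the seed of miR-206, a muscle microRNA that shares its seed with miR-1 (site ACATTCC), were lost at 8 polysome and 5 decay ends. Sites for miR-133 (GGACCAA), another muscle microRNA, were lost at 7 and 4, sites for let-7 (CTACCTC) at 6 and 3, and the Pumilio motif TGTANATA at 9 and 10. All motifs were searched on the transcript strand only. Kept stretches held 10 and 6 miR-206 sites and 7 and 6 miR-133 sites in less sequence. A letter match is not a site in use, and counts this low set no density apart from another.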

How the data were processed

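Per the submitters' processing notes, the tools were STAR 2.5.3a, UMI-tools 0.5.4, cutadapt 1.16 and bcl2fastq 2.20.0 and the build was GRCm39. Each of the 2 deposited tables gives, per isoform, a whole-number coverage count over all libraries (11 or more in the polysome table, 21 or more in the decay table), a class, distances to annotated ends, UTR sequences and the authors' TE or half-life. The sources used here give neither the TE formula nor the unit of the half-life. The number of columns with values of single libraries is 0, so depth per library is unknown, intervals cover counting error or spread over isoforms only, and no test was made.

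Isoforms, hexamers, coverage shares and pairs were computed in Python 3.11.15 with pandas 2.3.3, numpy 2.4.6 and scipy 1.17.1; pair building was tested on simulated data. Members and lists were chosen with earlier results of these data known. Named pairs were the 10 with the highest lower coverage per table, the 3 highest and lowest ratios at coverage of at least 100, the 5 most covered members with no annotated row at their 5′ end, and the 5 most covered pairs in both tables; Calr, the other Chrna1 ends, Flad1, Tnnt1, Tnnc2, Ncaph2 and the second Des isoform were added after their values were seen. Gene symbols came from matches of 5′ UTR sequence to RefSeq promoters (GRCm38.p6, names only): by the first 25 nt for 318 polysome and 315 decay members, widened after seeing the data to 456 (53.3%) and 447 (49.1%) by other windows or a shared start and stop codon context. Overlapping genes and near-identical copies may share reads. Alternatives were another coverage minimum, partner, window, set of hexamers and counting unit.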

Additional observations from a re-analysis of the deposited data

Results flagged for a closer look

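Shortened isoforms without a 3′ UTR sequence held coverage of 5022 in the polysome table and 7952 in the decay table, outside every comparison of 3′ UTRs above. None of the 86 such polysome isoforms had a TE, whereas 63 of 67 in the decay table had a half-life, with a median of 10.9 over the 46 with coverage of at least 30. The most covered were at chr6:136785311-136785791, with 952 in the polysome table, and chr1:135764128-135779475, with 918 in the decay table.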

How the results depend on the processing

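Of 64 values recomputed under alternatives, 58 stayed within the interval of the value reported, 6 moved out of it and 0 changed direction. Those that moved were the share of half-life pairs above 0, which was 70.9% at a coverage minimum of 100, the hexamer share in the polysome table, which was 78.8% with 10 variants counted, 55.1% over distinct 3′ ends and 64.2% at coverage of at least 30, the hexamer share in the decay table, which was 83.9% with the variants, and the polysome coverage share, which was 16.5% at 5′ ends with a summed coverage of at least 100. The limit to spans of at most 200000 nt, 1 pair per 3′ end, a hexamer in the last 40 nt, the values by 3′ UTR length, the spread of near-identical ends at coverage of at least 100 and the bases after the end were chosen after seeing the data. No paired analysis was possible because the tables hold no value per library, and no replicate could be left out. Coverage limits the pairs: only 76 and 142 5′ ends had a shortened and an annotated isoform with enough counts, so most members have no ratio.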
